A study of Mus musculus with 16 samples.

Results

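The 77 genes described here encode proteins of the cytosolic ribosome, 46 of the large subunit (symbols beginning Rpl or Rplp) and 31 of the small subunit (Rps and Rpsa). They were picked by symbol from the 20325 genes of the deposited table, and the rule uses the symbol alone. Polyadenylated RNA was sequenced from C3H10T1/2 cells, a mouse fibroblast-like line with the properties of mesenchymal stem cells. A lentivirus carrying a histone H3 transgene was given for 2 days, and carrier cells were then selected for 4 days with puromycin at 1.5 µg/ml, in every group alike. There were 8 groups with 2 libraries apiece, and they expressed H3.3 with tryptophan for glycine 34 (H3.3G34W), H3.3 with arginine for the same glycine (H3.3G34R), H3.3 with arginine for lysine 27 (H3.3K27R), H3.3 with G34W and K27R together (H3.3G34W_K27R), H3.3 with G34W and K36R together (H3.3G34W_K36R), H3.1 with G34W (H3.1G34W), unchanged H3.1 (H3.1WT) and unchanged H3.3 (H3.3WT). H3.3 is the histone H3 made throughout the cell cycle and H3.1 the form made in S phase. The transgenes were overexpressed beside the cells' own H3 genes, so each group is a mixture of transgenic and endogenous histone. The promoter of the transgene, and whether the cells of a group were 1 clone or a pool, are not given in the sources used here. The question of the series is what substitutions of H3.3 glycine 34 do to gene expression.

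A ribosome holds a single copy of nearly every ribosomal protein, and surplus subunits are degraded, so the mRNAs of these proteins are made in matched amounts and are among the most abundant of a growing cell. Most of them start with a C followed by an unbroken run of pyrimidines, the terminal oligopyrimidine (TOP) motif, through which mTOR and the binding protein Larp1 set their translation and stability. Their promoters often carry sites for ETS factors such as GABP and for YY1. When ribosome assembly is disturbed, Rpl5 and Rpl11 bind 5S rRNA and the p53 ligase Mdm2, and mutations in single ribosomal protein genes cause Diamond-Blackfan anemia in humans.

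The promoters of some members are shown because the members moved together and because short and long members differed below. The windows run from 50 bases before the annotated start to 20 bases after it, 5′ to 3′ on the gene's strand, from RefSeq on GRCm38.p6, and capitals mark a run of at least 6 C or T that reaches within 10 bases of the start. Of short coding sequences, Rps28, Rps21 and Rpl38 are given, Rps28 on chr17:33824543-33824612 (minus strand), Rps21 on chr2:180257329-180257398 (plus strand) and Rpl38 on chr11:114668530-114668599 (plus strand).
Rps28: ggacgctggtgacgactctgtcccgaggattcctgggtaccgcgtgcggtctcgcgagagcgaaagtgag
Rps21: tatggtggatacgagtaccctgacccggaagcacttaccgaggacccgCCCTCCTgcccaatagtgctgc
Rpl38: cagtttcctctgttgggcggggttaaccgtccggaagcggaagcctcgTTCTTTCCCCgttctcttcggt
Of long coding sequences, Rpl4, Rpl5 and Rpl6 are given, Rpl4 on chr9:64173337-64173406 (plus strand), Rpl5 on chr5:107900478-107900547 (plus strand) and Rpl6 on chr5:121204451-121204520 (plus strand).
Rpl4: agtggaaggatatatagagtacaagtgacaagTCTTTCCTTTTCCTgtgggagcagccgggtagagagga
Rpl5: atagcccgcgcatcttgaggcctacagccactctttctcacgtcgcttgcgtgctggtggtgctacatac
Rpl6: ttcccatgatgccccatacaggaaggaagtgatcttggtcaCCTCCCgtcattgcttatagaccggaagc
For a stalk pair and the target of the S6 kinases, Rplp0, Rplp2 and Rps6 are given, Rplp0 on chr5:115559417-115559486 (plus strand), Rplp2 on chr7:141447601-141447670 (plus strand) and Rps6 on chr4:86857348-86857417 (minus strand).
Rplp0: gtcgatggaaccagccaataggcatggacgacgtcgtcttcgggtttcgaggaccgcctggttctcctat
Rplp2: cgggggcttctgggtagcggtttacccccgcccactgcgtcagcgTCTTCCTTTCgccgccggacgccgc
Rps6: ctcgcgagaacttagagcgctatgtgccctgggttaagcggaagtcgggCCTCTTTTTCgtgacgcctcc
Such a run was present in 32 of the 57 members with a promoter in the RefSeq table (56.1%) and in 29.1% of all promoters in it. No run of that length reached within 10 bases of the annotated start in Rps28, Rpl5 or Rplp0. In Rpl5 a pyrimidine run, ctctttctc, ends just outside that window. From 250 bases before to 50 after the start, searched on both strands, the ETS motif CCGGAAG was found in 23 of 57 members (40.4%, against 9.12% of all promoters), the YY1 motif AAGATGG in 8 (14.0%, against 6.48%) and the E-box CACGTG, which Myc binds, in 5 (8.77%, against 7.24%). The pyrimidine words CTCTTT and CTTTCC, which can overlap each other, were each found in 27 members (47.4%, against 22.9% and 26.3% of all promoters). These are matches of letters and not measured binding sites.

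Values are the authors' estimated read counts times 1 constant per library, called the deposited value below, and for each group replicate 1 is given before replicate 2. By the value of 1 read in each library, the 6 libraries of H3.3G34W_K36R, H3.1G34W and H3.1WT held 34783047 to 49118720 reads and the other 10 held 26019532 to 33819157. Within 5 groups the libraries were close to each other. Those of H3.3WT differed by less than sampling noise where reads were whole (0.959 for the chi-square over its degrees of freedom, p = 0.938). They were averaged and counted as 1 sample. The pairs of H3.3G34W, H3.1G34W and H3.1WT differed widely, with 47.8, 41.9 and 32.4 per degree of freedom over the same kind of gene. Nothing in the labels says that 2 libraries of a group are separate cultures, and the spread behind the p-values may therefore be technical. All 13 mesenchymal markers searched for were present in every library, and their values summed to 851680 to 1443400 per library. Of 5 blood markers Cd3e and Hbb-b1 were at 0 in all 16 libraries and the other 3 were detected in some, with sums of 22.4 to 66.7. The sums were 22.2 to 976 for 5 epithelial markers, 63.5 to 3113 for 4 endothelial markers and 41.0 to 873 for 4 neural markers.

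Ribosomal protein genes have many processed copies in the mouse genome, and their reads were shared out between near-identical sequences by estimation. Whole reads stood behind 0 to 7 of the 77 member values of a library, against 41.7% to 47.6% of all values above 0, so each member's level is uncertain to the extent that copies took or gave reads. The doubt is greatest for members that stood far below the others, among them Rpl34, Rps23 and Rps27. Per kilobase of coding sequence these 3 averaged 1838, 5298 and 1523 in the deposited unit. The highest per kilobase were Rpl41 at 278460, Rplp1 at 158510 and Rpl39, a small protein of the exit tunnel, at 114640. Rps27 was listed at 0.04 in replicate 1 of H3.3G34W_K36R and at 0 in replicate 1 of H3.1WT. It reached 1105 in replicate 1 of H3.3WT, so no fold change is given for it. All 77 members passed the filter of a mean of at least 10.

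The summed share of the members in a library's signal was 3.58% and 5.05% in H3.3G34W, 6.27% and 6.17% in H3.3G34R, 7.23% and 7.13% in H3.3K27R, 4.69% and 4.73% in H3.3G34W_K27R, 4.96% and 4.96% in H3.3G34W_K36R, 4.99% and 6.57% in H3.1G34W, 4.36% and 7.18% in H3.1WT and 6.91% and 6.91% in H3.3WT. The lowest share stood in replicate 1 of H3.3G34W and the highest in replicate 1 of H3.3K27R. On the log2(value + 1) scale, each member was centred on its mean over the 16 libraries, and the median over members was -0.71 and -0.14 in H3.3G34W, 0.14 and 0.12 in H3.3G34R, 0.37 and 0.32 in H3.3K27R, -0.29 and -0.27 in H3.3G34W_K27R, -0.17 and -0.17 in H3.3G34W_K36R, -0.07 and 0.19 in H3.1G34W, -0.26 and 0.52 in H3.1WT and 0.26 and 0.27 in H3.3WT. Both libraries of H3.3G34W, H3.3G34W_K27R and H3.3G34W_K36R, the H3.3 groups that carry G34W, lay below 0, and both libraries of H3.3G34R, H3.3K27R and H3.3WT lay above it. The H3.1 groups straddled 0. In bulk RNA, fewer cells with high levels and less of the mRNA per cell cannot be told apart.

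**Figure D1:**
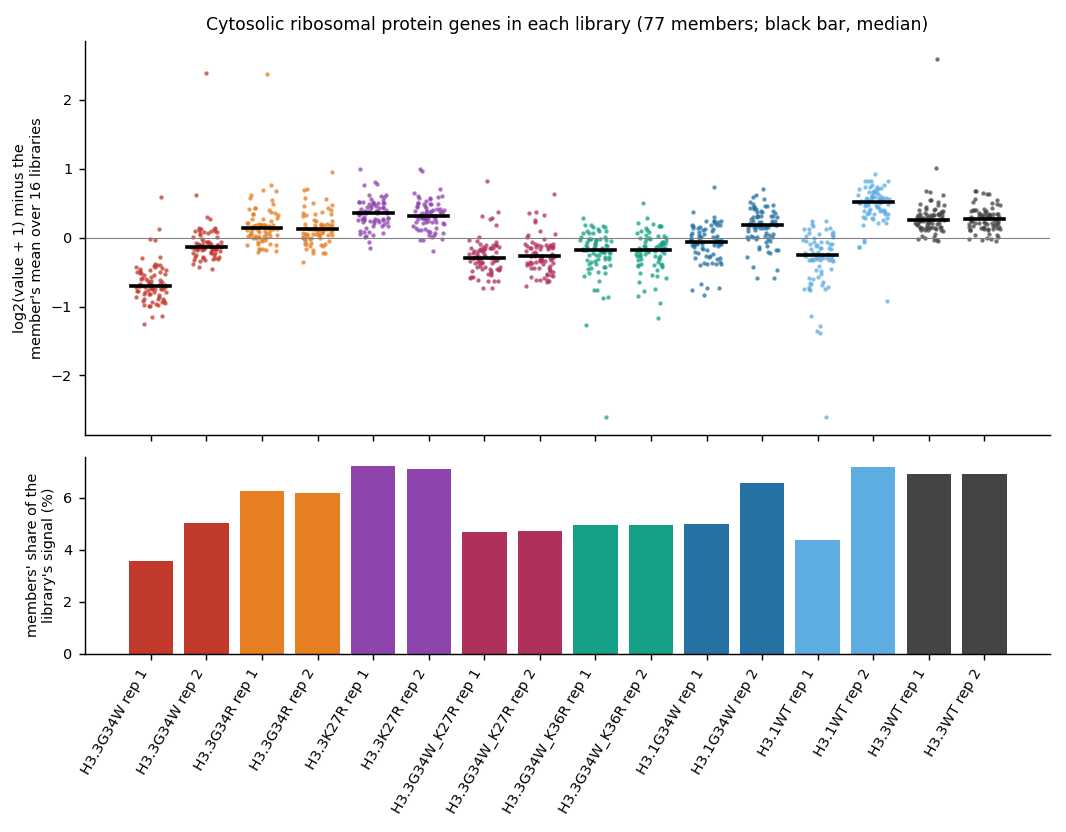
Upper plot, log2(value + 1) of each of the 77 members minus its mean over the 16 libraries, by library, with a black bar at the median; lower plot, the members' summed share of each library's signal in percent. The 6 libraries of H3.3G34W, H3.3G34W_K27R and H3.3G34W_K36R have medians below 0, and replicate 1 of H3.3G34W is lowest at -0.71.

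Libraries of the same group did not always lie together. Replicate 2 of H3.3G34W exceeded replicate 1 in 77 of 77 members (median difference 0.54 on the log2 scale), replicate 2 of H3.1WT in 76 (0.78) and replicate 2 of H3.1G34W in 71 (0.25). Over all genes tested the same median differences were 0.02, 0.01 and 0.00. In the 5 close pairs the median difference over members lay between -0.03 and 0.00. The SD of the library medians within groups was 0.27.

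H3.3G34W was compared with H3.3WT to ask what the glycine 34 to tryptophan change of H3.3 does. Every member had a lower mean in H3.3G34W, with a median log2 fold change of -0.69 over the members and of 0.00 over all 12670 genes tested. None of the 77 members was called (limma, Benjamini-Hochberg adjusted p under 0.05), and 1.18% of all genes were called in this comparison. At an unadjusted p under 0.05 there were 39 members, all lower, against 13.2% of all genes. For 76 of 77 members, Rps27 excepted, both H3.3G34W libraries lay below both H3.3WT libraries, while 27% of all genes did so, and none lay above without overlap, against 27.6% of all genes.

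Rpl23, a protein of the face between the subunits that can also bind Mdm2, had the smallest adjusted p. It stood at 17102 and 23571 in H3.3G34W, against 40936 and 40804 in H3.3WT (log2 fold change -1.03 ± 0.30, limma adjusted p = 0.153). Rps6, the substrate of the S6 kinases, stood at 23168 and 36565 in H3.3G34W, against 54477 and 54456 in H3.3WT (log2 fold change -0.90 ± 0.30, limma adjusted p = 0.209). Both H3.3G34W libraries were low for each gene, and replicate 1 was the lower.

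Rps3, which lies at the mRNA entry, had values of 17776 and 25571 in H3.3G34W, against 35815 and 35803 in H3.3WT (log2 fold change -0.75 ± 0.29, limma adjusted p = 0.295). Rps2, another protein of the mRNA entry, had 33954 and 66683 in H3.3G34W, against 86435 and 86471 in H3.3WT (log2 fold change -0.86 ± 0.38, limma adjusted p = 0.362). Rpl22, without which mice are viable, had 6516 and 6733 in H3.3G34W, against 11577 and 11563 in H3.3WT, and its H3.3G34W libraries lay close together (log2 fold change -0.80 ± 0.30, limma adjusted p = 0.272). Rpl10, which joins the large subunit late in its maturation, had 27774 and 36000.5 in H3.3G34W, against 45941 and 45967 in H3.3WT (log2 fold change -0.54 ± 0.25, limma adjusted p = 0.383). None of these was called, and the groups did not overlap for any of them.

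The result rests in part on replicate 1 of H3.3G34W. The median log2 fold change was -0.40 without replicate 1 and -0.95 without replicate 2, and the number of members called was 2 without H3.1WT replicate 1 or 2, 22 without H3.3G34W replicate 2 and 0 without each of the other libraries. With the H3.3WT libraries counted separately 7 members were called. Adipocyte markers moved with it: the sum of 7 markers was 22192 and 3365 in H3.3G34W, 12275 and 12225 in H3.3G34W_K27R and 1728 to 4274 in the other libraries, H3.3WT included. Chondrocyte markers summed to 15221 and 86672 in H3.3G34W, against 60132 and 60421 in H3.3WT. Their part in the result was not tested.

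H3.3G34R, the other substitution at glycine 34, and H3.3K27R were each compared with the same H3.3WT libraries. No member was called in H3.3G34R, where 2.72% of all genes were called, or in H3.3K27R, where 2.75% were called, and no member had an unadjusted p under 0.05 in either, against 14.9% and 13.8% of all genes. Over the members the median log2 fold change was -0.12 in H3.3G34R, with 61 members below 0, and 0.07 in H3.3K27R, with 21 below 0. Rpl23 again had the smallest adjusted p in H3.3G34R, at 27879 and 27682 in H3.3G34R, against 40936 and 40804 in H3.3WT (log2 fold change -0.56 ± 0.30, limma adjusted p = 0.436). Both H3.3G34R libraries lay between those of H3.3G34W and H3.3WT for this gene. In H3.3K27R the smallest adjusted p was that of Rps23, an uncertain member, at 2918 and 3227 in H3.3K27R, against 2337 and 2177 in H3.3WT (log2 fold change 0.44 ± 0.37, limma adjusted p = 0.704).

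The median SE of a member was 0.32 in comparisons with H3.3WT. For 52 members both H3.3G34R libraries lay below both H3.3WT libraries and for 13 above, while 43.1% and 41.5% of all genes did so. In H3.3K27R 46 members lay above H3.3WT without overlap and 16 below, against 40.3% and 42.5% of all genes. The libraries within each of these 3 groups were close to each other. The comparisons of H3.3G34W, H3.3G34R and H3.3K27R share the H3.3WT libraries.

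H3.3G34W_K27R carries both changes on the same tail and was set against H3.3K27R, against H3.3WT and against H3.3G34W. Against H3.3K27R 19 of 77 members fell and none rose (limma, adjusted p under 0.05), where 14.5% of all genes fell and 11.7% rose. All 77 members were below 0, with a median log2 fold change of -0.65, against 0.02 over all genes. The libraries of 75 members did not overlap, Rplp2 and Rps27 excepted, while 42.7% of all genes lay lower without overlap.

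Rps20, a protein of the head of the small subunit, fell to 15922 and 17754 in H3.3G34W_K27R, against 38014 and 36332 in H3.3K27R (log2 fold change -1.14 ± 0.27, limma adjusted p = 0.012). Rps12, a small-subunit protein that in Drosophila is needed for cell competition, fell to 33151 and 31698 in H3.3G34W_K27R, against 67666 and 66367 in H3.3K27R (log2 fold change -1.05 ± 0.25, limma adjusted p = 0.0122). Rpl13a, which in human cells also acts in a complex that silences inflammatory mRNAs, fell to 20168 and 21324 in H3.3G34W_K27R, against 43462 and 41414 in H3.3K27R (log2 fold change -1.03 ± 0.25, limma adjusted p = 0.0136). In each of them the H3.3G34W_K27R libraries lay close together and far below both H3.3K27R libraries. Rpl7, of the large subunit, fell to 24128 and 23369.7 in H3.3G34W_K27R, against 42772 and 44134 in H3.3K27R (log2 fold change -0.87 ± 0.20, limma adjusted p = 0.0117). The fixed members Rps4x, Rpl5 and Rps3 fell too, with log2 fold changes of -0.85, -0.71 and -0.78. Rplp0 had 57086 and 55768 in H3.3G34W_K27R, against 92480.3 and 90232 in H3.3K27R and was not called (log2 fold change -0.70 ± 0.26, limma adjusted p = 0.0717), and Rplp2 had 17245 and 17843 in H3.3G34W_K27R, against 19284 and 17435 in H3.3K27R (log2 fold change -0.06 ± 0.29, limma adjusted p = 0.893).

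Against H3.3WT 7.91% of all genes fell and 6.42% rose, and 1 of 77 members did, Rpl23, to 20565 and 20115 in H3.3G34W_K27R, against 40936 and 40804 in H3.3WT (log2 fold change -1.01 ± 0.30, limma adjusted p = 0.0495). The median log2 fold change over members was -0.56, 76 of 77 were below 0 and 23 had an unadjusted p under 0.05, against 27.7% of all genes. For 74 members, all but Rpl24, Rplp2 and Rps27, both H3.3G34W_K27R libraries were below both H3.3WT libraries, while 44.5% of all genes were. Rps4x, encoded on the X chromosome, had 29768 and 28197 in H3.3G34W_K27R, against 51339.5 and 51325 in H3.3WT (log2 fold change -0.83 ± 0.26, limma adjusted p = 0.0584), and Rpl7 had 24128 and 23369.7 in H3.3G34W_K27R, against 40513 and 41174 in H3.3WT (log2 fold change -0.78 ± 0.25, limma adjusted p = 0.0645). Against H3.3G34W no member was called, where 21.6% of all genes were, and 1 member had an unadjusted p under 0.05, against 33.8% of all genes. Its median log2 fold change over members was 0.12, and it was -0.18 without replicate 1 and 0.42 without replicate 2 of H3.3G34W, with 4 called without H3.3G34W replicate 2. In 9 members the H3.3G34W_K27R libraries lay above those of H3.3G34W and in 2 below, without overlap, against 30% and 32.1% of all genes. The interaction, which asks whether G34W acts differently on a K27R tail, called no member, where 7.95% of all genes were called, and no member had an unadjusted p under 0.05, against 22.2% of all genes.

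Cell cycle genes fell in the same libraries. Of 20 genes of G2 and M phase all 20 fell in H3.3G34W_K27R against H3.3WT (median log2 fold change -3.95), among them Mki67, the proliferation marker (-4.61), and Ccnb2, a mitotic cyclin (-4.43), and 17 of 25 S phase genes fell (median -1.75), where 7.91% of all genes fell. In H3.3G34W against H3.3WT no gene of either list was called, with medians of 0.07 and -0.51. Marker sums of other cell types differed between these groups as well. The adipocyte markers summed to 12275 and 12225 in H3.3G34W_K27R and 22192 and 3365 in H3.3G34W, against 2228 and 2214 in H3.3K27R and 2928 and 2887 in H3.3WT. The epithelial markers summed to 22.2 and 28.2 in H3.3G34W_K27R and 35.7 and 347 in H3.3G34W, against 862 and 861 in H3.3K27R and 938 and 976 in H3.3WT. The H3.3G34W_K27R sums were higher than those of H3.3K27R and H3.3WT for adipocyte markers and lower for epithelial markers. The neural markers summed to 57.7 and 68.1 in H3.3G34W_K27R and 476 and 625 in H3.3G34W, against 873 and 809 in H3.3K27R and 650.5 and 621 in H3.3WT. The chondrocyte markers summed to 13971 and 14956 in H3.3G34W_K27R and 15221 and 86672 in H3.3G34W, against 27301 and 24833 in H3.3K27R and 60132 and 60421 in H3.3WT. For both lists the H3.3G34W_K27R sums were again the lower. The part of the cell cycle genes or of these markers in the lower ribosomal protein values was not tested.

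The 19 calls against H3.3K27R depended on the libraries in the fit, being 0 without H3.3K27R replicate 1 or 2 or H3.3G34W_K27R replicate 1, 1 without H3.3G34W_K27R replicate 2, 10 without H3.3G34R replicate 1 or 2 or H3.3G34W_K36R replicate 1 or 2, 40 without H3.3G34W replicate 1 or 2, 50 without H3.1WT replicate 1 or 2. They were 30 with the H3.3WT libraries counted separately. The 1 call against H3.3WT was 0 without H3.3G34R replicate 1 or 2, H3.3K27R replicate 1 or 2, H3.3G34W_K27R replicate 1 or 2 or H3.3G34W_K36R replicate 1 or 2, 2 without H3.3WT replicate 2, 4 without H3.1G34W replicate 1 or 2, 7 without H3.3G34W replicate 1 or 2, 17 without H3.1WT replicate 1 or 2, and 23 with the H3.3WT libraries counted separately. When the libraries of the 5 close pairs were averaged pair by pair, no member was called here or in any other comparison.

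H3.3G34W_K36R carries G34W together with a change of lysine 36, the residue whose methylation G34 substitutions are known to impair on the same tail. Against H3.3WT 5 of 77 members fell and none rose (limma, adjusted p under 0.05), where 8.82% of all genes fell and 8.3% rose. Over the members the median log2 fold change was -0.45, with 71 below 0, and in 67 members the libraries lay below H3.3WT without overlap and in 6 above, against 46% and 44.6% of all genes. Of the 5, 4 are among the shortest members and are described next.

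Rps29, a small zinc-binding protein of the small subunit, stood at 12449 and 15801 in H3.3G34W, 20514 and 20738 in H3.3G34R, 18925 and 19354 in H3.3K27R, 15437 and 14896 in H3.3G34W_K27R, 6932 and 6632 in H3.3G34W_K36R, 7559 and 8555 in H3.1G34W, 4892 and 11653 in H3.1WT and 20515 and 20437 in H3.3WT. Its values in H3.3G34W_K36R, H3.1G34W and H3.1WT were all below those of the other 5 groups. Against H3.3WT it fell in H3.3G34W_K36R (log2 fold change -1.59 ± 0.38, limma adjusted p = 0.0188), a call kept in 24 of 27 alternatives.

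Rps28, of the mRNA exit site, stood at 7943 and 10403 in H3.3G34W, 14829 and 14372 in H3.3G34R, 16966 and 14809 in H3.3K27R, 12043 and 12396 in H3.3G34W_K27R, 5755 and 5771 in H3.3G34W_K36R, 5419.6 and 6444 in H3.1G34W, 3799 and 8848 in H3.1WT and 15322 and 15477 in H3.3WT. Replicate 2 of H3.1WT overlapped with replicate 1 of H3.3G34W, and the other libraries of the same 3 groups were below all libraries of the other 5. In H3.3G34W_K36R it fell (log2 fold change -1.42 ± 0.38, limma adjusted p = 0.0294), a call kept in 20 of 27 alternatives.

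Rpl38, which mouse embryos need for the translation of a set of Hox mRNAs, stood at 7509 and 10024 in H3.3G34W, 12332 and 12276 in H3.3G34R, 15678 and 14864 in H3.3K27R, 11771 and 11807 in H3.3G34W_K27R, 5028 and 5042 in H3.3G34W_K36R, 5494 and 6753 in H3.1G34W, 3727 and 8681 in H3.1WT and 13984 and 14134 in H3.3WT. Replicate 2 of H3.1WT again overlapped with replicate 1 of H3.3G34W, and the other 5 libraries of H3.3G34W_K36R, H3.1G34W and H3.1WT lay lowest. It fell in H3.3G34W_K36R (log2 fold change -1.48 ± 0.38, limma adjusted p = 0.0255), a call kept in 24 of 27 alternatives.

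Rps21, of the small subunit, stood at 9807 and 12046 in H3.3G34W, 16866 and 16282 in H3.3G34R, 13760.5 and 12072 in H3.3K27R, 11284 and 11954 in H3.3G34W_K27R, 5853 and 5836 in H3.3G34W_K36R, 6023 and 7178 in H3.1G34W, 4539.6 and 9689 in H3.1WT and 13883 and 14239 in H3.3WT. The 6 libraries of H3.3G34W_K36R, H3.1G34W and H3.1WT were below all others, with replicate 2 of H3.1WT just under replicate 1 of H3.3G34W. It fell in H3.3G34W_K36R (log2 fold change -1.27 ± 0.34, limma adjusted p = 0.0313), a call kept in 18 of 27 alternatives. Without either H3.3G34W_K36R library the calls on Rps29, Rps28, Rpl38 and Rps21 were lost, and with close pairs counted as 1 sample all 5 were.

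**Figure D2:**
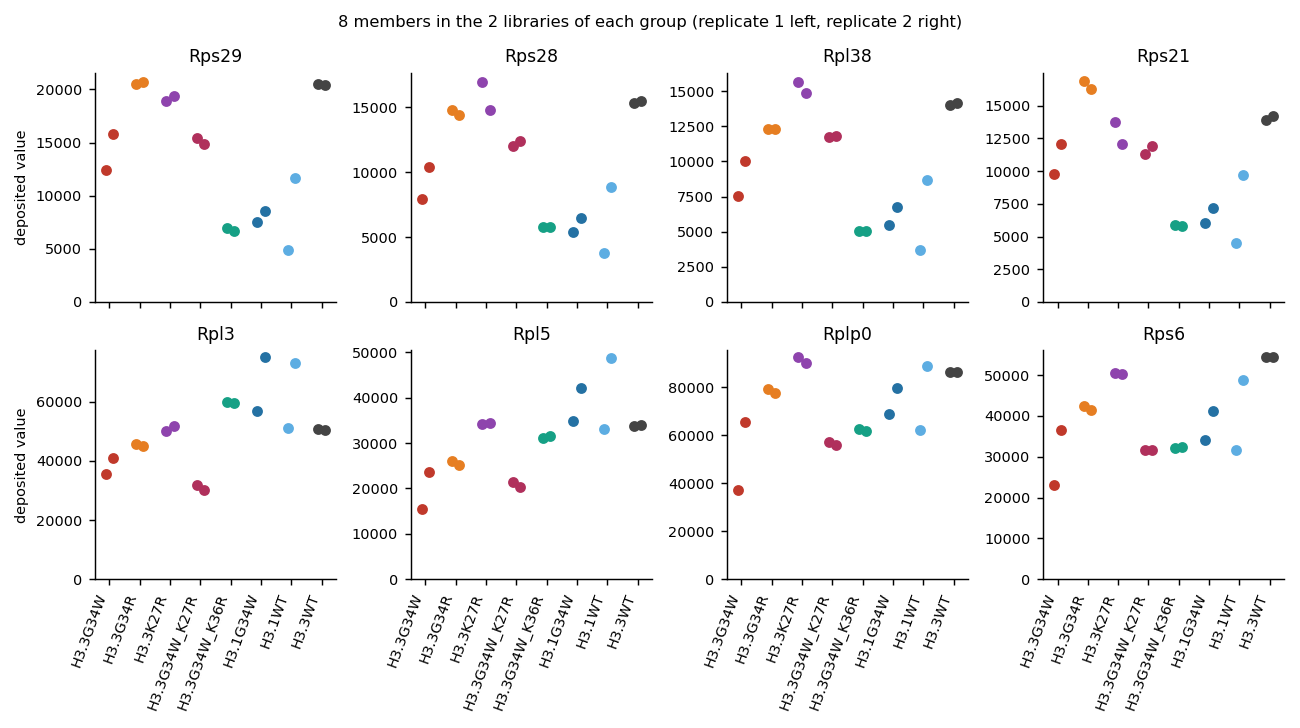
Deposited value of 8 members in the 2 libraries of each group, replicate 1 left of replicate 2, on linear axes from 0. Rps29, Rps28, Rpl38 and Rps21 are lowest in H3.3G34W_K36R, H3.1G34W and replicate 1 of H3.1WT, while Rpl3 and Rpl5 are lowest in H3.3G34W or H3.3G34W_K27R.

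Long members had other orders. Rpl3, which lies near the peptidyl transferase centre and was chosen as a long member after its values were seen, stood at 35536 and 40994 in H3.3G34W, 45739 and 45102 in H3.3G34R, 49984 and 51874 in H3.3K27R, 31959 and 30262 in H3.3G34W_K27R, 59969 and 59777 in H3.3G34W_K36R, 56896 and 75152 in H3.1G34W, 51115 and 72988 in H3.1WT and 50769 and 50522 in H3.3WT. Both H3.3G34W_K36R libraries were above both H3.3WT libraries, and those of H3.3G34W and H3.3G34W_K27R were below them. In H3.3G34W_K36R it had a log2 fold change of 0.24 over H3.3WT and was not called, and it rose over H3.3G34W (log2 fold change 0.65 ± 0.20, limma adjusted p = 0.0329). Rpl4, which lines the exit tunnel, stood at 25882 and 44493 in H3.3G34W, 47624 and 46049.9 in H3.3G34R, 49379 and 50440.2 in H3.3K27R, 33120 and 33273 in H3.3G34W_K27R, 55706 and 54962 in H3.3G34W_K36R, 63327 and 79885 in H3.1G34W, 58163 and 77293 in H3.1WT and 47483 and 47770.5 in H3.3WT. It was highest in H3.1G34W replicate 2 and H3.1WT replicate 2, and H3.3G34W_K36R was above H3.3WT without overlap (log2 fold change 0.22 ± 0.30, limma adjusted p = 0.66).

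Against H3.3G34W, 7 of 77 members rose and 3 fell in H3.3G34W_K36R, where 14.4% of all genes rose and 16.2% fell. Rpl17 rose to 28339 and 29225 in H3.3G34W_K36R, against 15077 and 19188 in H3.3G34W (log2 fold change 0.76 ± 0.23, limma adjusted p = 0.0303). Rpl6 rose to 33556 and 33814 in H3.3G34W_K36R, against 17079 and 24667 in H3.3G34W (log2 fold change 0.71 ± 0.21, limma adjusted p = 0.0261). In these the libraries of the groups did not overlap. Rpl5 and Rpl7 rose by 0.71 and 0.69 on the log2 scale, and Rps3a, named after its value was seen, rose too (0.60). In 30 members the H3.3G34W_K36R libraries lay above those of H3.3G34W and in 9 below, without overlap, against 34% and 35.8% of all genes. Among those that fell were Rps29 and Rps21, with log2 fold changes of -1.05 and -0.89.

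The 5 calls against H3.3WT were 1 without H3.3G34W_K36R replicate 1 or 2, 3 without H3.3G34R replicate 1 or 2 or H3.3G34W_K27R replicate 1 or 2, 8 without H3.3G34W replicate 1 or 2, 20 without H3.1WT replicate 1 or 2, and 21 with the H3.3WT libraries counted separately. The 10 calls against H3.3G34W were 1 without H3.3G34W_K36R replicate 1, 2 without H3.3G34W replicate 1 or H3.3G34W_K36R replicate 2, 4 without H3.3G34R replicate 1 or 2, H3.3K27R replicate 1 or 2 or H3.3G34W_K27R replicate 1 or 2, 18 without H3.1WT replicate 1 or 2, 24 without H3.3G34W replicate 2, and the median of 0.22 was -0.06 without replicate 1 of H3.3G34W and 0.54 without replicate 2. With the total signal of each library made equal, the median of all genes shifted to -0.10 against H3.3WT and that of the members to -0.54.

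H3.1WT was compared with H3.3WT, to set the histone type apart from the changes on it. Here 17% of all genes fell and 16.3% rose, and of the 77 members 5 fell and none rose, Rps29, Rps28, Rpl38 and Rps21 again among them. Their values are given above. Of these 4, Rps29 had the smallest adjusted p (log2 fold change -1.44 ± 0.38, limma adjusted p = 0.0162), Rps28 was close to it (log2 fold change -1.41 ± 0.38, limma adjusted p = 0.0179), Rpl38 followed (log2 fold change -1.31 ± 0.38, limma adjusted p = 0.0249), and Rps21 was nearest to the threshold (log2 fold change -1.08 ± 0.34, limma adjusted p = 0.0351). The comparison shares its H3.3WT libraries with that of H3.3G34W_K36R. Without replicate 1 of H3.1WT the log2 fold changes of Rps29, Rps28, Rpl38 and Rps21 were -0.81, -0.80, -0.70 and -0.54, and Rps21 was then not called. Without replicate 2 that of Rps21 was -1.63.

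Rpsa, the small-subunit protein also described as a laminin receptor, had 67344 and 105509 in H3.1WT, against 64464 and 64309 in H3.3WT (log2 fold change 0.39 ± 0.33, limma adjusted p = 0.387). Rps19, the gene most often mutated in Diamond-Blackfan anemia, had 8502 and 16151 in H3.1WT, against 20341 and 20125 in H3.3WT (log2 fold change -0.79 ± 0.36, limma adjusted p = 0.116). Neither was called, and Rps19 was below H3.3WT in both H3.1WT libraries while Rpsa was above it in both. The median log2 fold change over members was -0.16, with 45 below 0, and in 6 members the libraries lay above H3.3WT without overlap and in 21 below, against 38.1% and 39.1% of all genes. It was 0.23 without replicate 1 and -0.53 without replicate 2 of H3.1WT. With equal total signal it was -0.38, when the median of all genes shifted to -0.23. The count of 5 was 25 without H3.1WT replicate 2.

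H3.1G34W was compared with H3.1WT. No member and no gene was called, and at an unadjusted p under 0.05 there were 0 of 77 members and 2015 of 12670 genes. The median log2 fold change was -0.04, and 0.05 and 0.12 with equal total signal and with quantile normalization. For all 77 members the libraries of the groups overlapped, while 15.6% of all genes lay higher and 17.6% lower without overlap. Rplp0 had 68607 and 79749 in H3.1G34W, against 62324 and 88667 in H3.1WT (log2 fold change -0.01 ± 0.26, limma adjusted p = 0.994), with both H3.1G34W values between those of H3.1WT. Leaving out replicate 1 of H3.1WT gave a median of -0.45 and 4 calls, and leaving out replicate 2 gave a median of 0.34 and no call. The interaction asks whether G34W moves a gene more on H3.3 than on H3.1. It was below 0 for 77 of 77 members, with a median of -0.61, and no member was called, where 0.197% of all genes were. The largest by p was Rpl23 (interaction -1.01 ± 0.39 on the log2 scale, limma adjusted p = 0.394), and 4 members had an unadjusted p under 0.05, against 10.6% of all genes. 1 member was called without replicate 2 of H3.3G34W.

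Across all 8 groups, 23 of 77 members were called by the moderated F test (29.9%), where 66.6% of all genes were. Among the smallest adjusted p were those of Rps29 (0.00404), Rps28 (0.00482), Rps21 (0.00592) and Rpl38 (0.00613), all by limma. The share of members called was below that of all genes. The count was 10 without H3.3G34W_K27R replicate 2, 11 without H3.3G34W_K27R replicate 1, 13 without H3.3K27R replicate 2, 14 without H3.3K27R replicate 1 or H3.3G34W_K36R replicate 1, 15 without H3.3G34R replicate 1 or 2 or H3.3G34W_K36R replicate 2, 52 without H3.3G34W replicate 2, 58 without H3.1WT replicate 2, 71 without H3.1WT replicate 1, and 44 with the H3.3WT libraries counted separately and 0 with close pairs averaged.

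The members differed among themselves by the length of their coding sequence. Coding length was the longest coding sequence of the gene in the GENCODE annotation, known for all 77 members, from 138 bases (Rpl41) to 1257 (Rpl4) with a median of 468. In H3.3G34W_K36R over H3.3WT the median log2 fold change was -0.65 in the 40 members of at most 468 bases and -0.29 in the 37 longer ones. In H3.1WT over H3.3WT it was -0.39 in the shorter and 0.07 in the longer. In H3.3G34W_K36R over H3.3G34W it was 0.07 and 0.33. The log2 fold change correlated with log2 coding length across the 77 members at 0.45, 0.47 and 0.44 in these comparisons, which share libraries. Rps27, a short member too uncertain for a fold change to be given, was kept in these correlations and was the lowest member in each. The correlations without Rps27 were not computed. In H3.3G34W over H3.3WT the shorter and longer members had medians of -0.72 and -0.62, with a correlation of -0.07, and in H3.3G34W_K27R over H3.3WT -0.50 and -0.64, with -0.21.

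**Figure D3:**
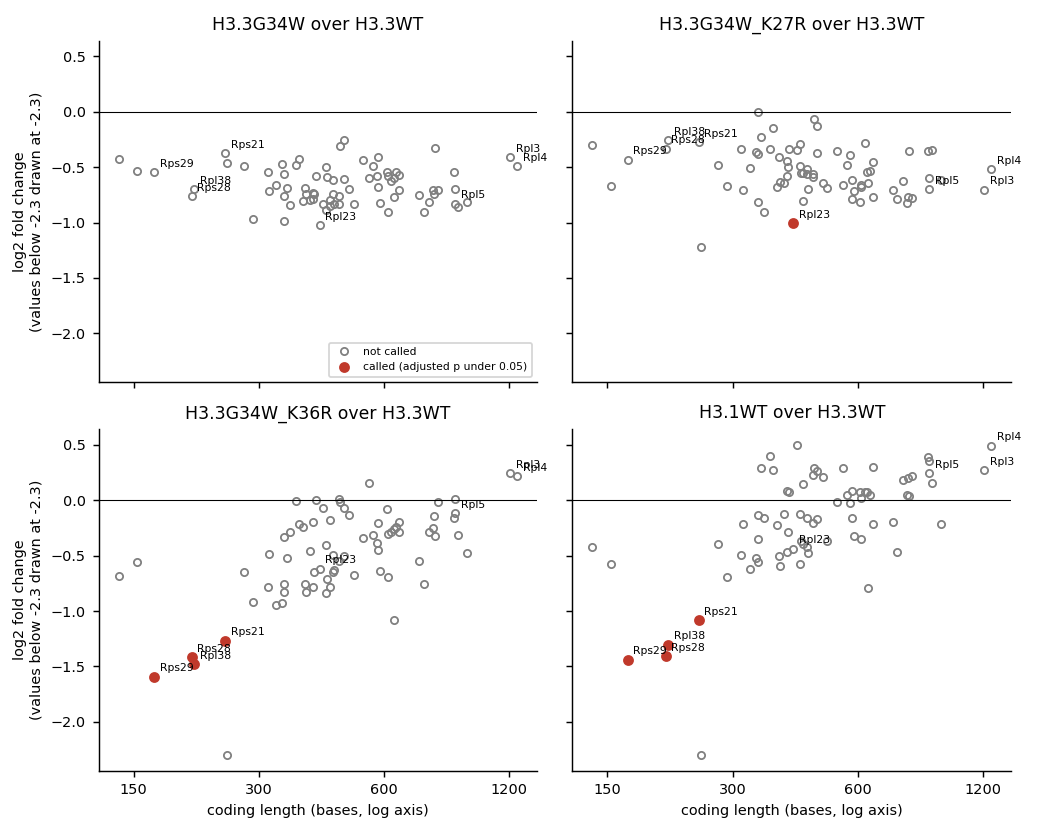
Log2 fold change of each member against its coding length in bases (log axis) in 4 comparisons with H3.3WT, with called members in red, 2 members not drawn and Rps27, below the axis in 2 plots, drawn at its lower limit. In H3.3G34W and H3.3G34W_K27R short and long members lie below 0 alike, apart from Rplp2 at 0.00, and in H3.3G34W_K36R and H3.1WT Rps29, Rps28, Rpl38 and Rps21 lie among the lowest while Rpl3 and Rpl4 lie above 0.

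At the ends of the range, taken after the values were seen, the 10 shortest members had a median log2 fold change of -1.09 and the 10 longest -0.13 in H3.3G34W_K36R over H3.3WT, and -0.89 and 0.23 in H3.1WT over H3.3WT. Rpl41 and Rpl39, the shortest of all, were less lowered in H3.3G34W_K36R than the median of these 10. Rpl41 had 27160 and 26760 there, against 43228 and 43149 in H3.3WT. Rpl39 had 14500 and 14785, against 21444.5 and 21548. The ratio of the deposited values of Rps29 and Rpl3, also chosen after the values were seen, was 0.35 and 0.385 in H3.3G34W, 0.449 and 0.46 in H3.3G34R, 0.379 and 0.373 in H3.3K27R, 0.483 and 0.492 in H3.3G34W_K27R, 0.116 and 0.111 in H3.3G34W_K36R, 0.133 and 0.114 in H3.1G34W, 0.0957 and 0.16 in H3.1WT and 0.404 and 0.405 in H3.3WT. The 6 libraries of H3.3G34W_K36R, H3.1G34W and H3.1WT had ratios of at most 0.16 and the other 10 of at least 0.35. For Rpl38 over Rpl3 the ratio was 0.0838 and 0.0843 in H3.3G34W_K36R, 0.0966 and 0.0898 in H3.1G34W and 0.0729 and 0.119 in H3.1WT, against 0.275 and 0.28 in H3.3WT.

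The same 6 libraries were the deepest of the series. In them the centred median of the shorter members minus that of the longer lay between -0.33 and -0.12, and in the other 10 between 0.03 and 0.19. Genes other than the members showed a like difference: over 827 genes of at most 468 bases minus 4507 of up to 1257 bases it was -0.25 to -0.18 in 5 of the 6 libraries, 0.10 in H3.1WT replicate 2, and -0.03 to 0.17 in the other 10. Group, depth and this length difference therefore move together in these libraries, and their parts in the calls on short members cannot be told apart.

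**Figure D4:**
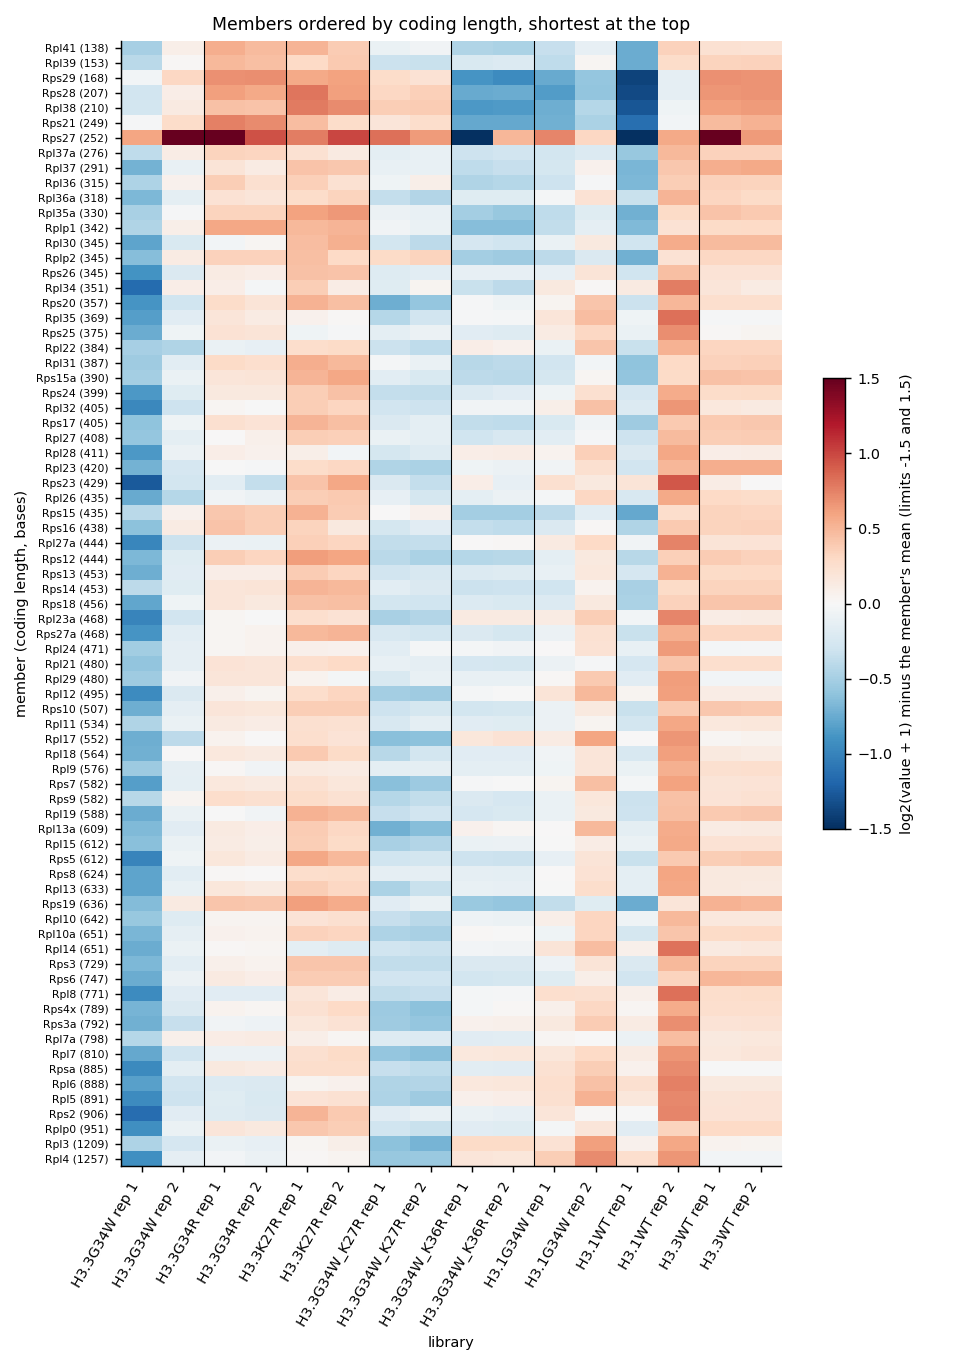
Log2(value + 1) of each member minus its mean over the 16 libraries, in color, with members in rows (2 not drawn) from the shortest coding sequence at the top to the longest at the bottom and libraries in columns. Blue in nearly all rows marks replicate 1 of H3.3G34W, and in H3.3G34W_K36R and H3.1WT replicate 1 blue gathers in the upper rows.

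Members were also set together by role. The median log2 fold changes of the large and small subunits were -0.61 and -0.74 in H3.3G34W and -0.53 and -0.61 in H3.3G34W_K27R over H3.3WT. In H3.3G34W_K36R they were -0.32 and -0.55, and in H3.1WT 0.00 and -0.20, both over H3.3WT. The difference between the subunits was not tested. Of the stalk, which recruits the elongation factors, Rplp1 stood at 38083 and 55182 in H3.3G34W, 77422 and 77328 in H3.3G34R, 72821 and 73679.6 in H3.3K27R, 50059 and 48475 in H3.3G34W_K27R, 33394 and 33243 in H3.3G34W_K36R, 40278 and 47427 in H3.1G34W, 32771 and 60105 in H3.1WT and 63399.9 and 63687 in H3.3WT. It was lowest in H3.3G34W_K36R and in replicate 1 of H3.1WT, not in H3.3G34W, and it was not called in H3.3G34W_K36R over H3.3WT (log2 fold change -0.93 ± 0.33, limma adjusted p = 0.0778). Rplp2 was not called in any comparison, and in H3.3G34W_K36R it had 9939 and 9756 in H3.3G34W_K36R, against 17502 and 17531 in H3.3WT (log2 fold change -0.83 ± 0.36, limma adjusted p = 0.139). Rplp0, the long member of the stalk, had 62438 and 61705 in H3.3G34W_K36R, against 86364 and 86132 in H3.3WT (log2 fold change -0.47 ± 0.32, limma adjusted p = 0.33).

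Of the 5S particle, Rpl5 stood at 15373 and 23723 in H3.3G34W, 26020.4 and 25219 in H3.3G34R, 34097 and 34510.3 in H3.3K27R, 21441 and 20416 in H3.3G34W_K27R, 31075 and 31596 in H3.3G34W_K36R, 34836 and 42201 in H3.1G34W, 33114 and 48745 in H3.1WT and 33813 and 34074 in H3.3WT. It was lowest in replicate 1 of H3.3G34W and in both H3.3G34W_K27R libraries, and highest in replicate 2 of H3.1WT. Rpl11, its partner, stood at 10619.8 and 13550.3 in H3.3G34W, 15925 and 15676 in H3.3G34R, 17187 and 16942 in H3.3K27R, 12303 and 13095 in H3.3G34W_K27R, 12889.9 and 12747 in H3.3G34W_K36R, 13627 and 14909 in H3.1G34W, 11941 and 21772 in H3.1WT and 16153 and 16366 in H3.3WT. Replicate 1 of H3.3G34W was lowest and replicate 1 of H3.1WT next, and it was not called in any comparison.

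The 15 genes of Mdm2 and p53 response were measured beside them. In H3.3G34W over H3.3WT none was called (median log2 fold change -0.30). In H3.3G34W_K27R over H3.3WT, Mdm2 and Eda2r rose (1.23 and 1.16) and Gtse1 and Fas fell, the first by the larger change (-1.89). Of all genes, 6.42% rose and 7.91% fell in that comparison. In H3.3G34W_K36R over H3.3WT 6 of the list were called, led by Phlda3 (-2.10) and Fas (-1.59), which fell, and Sesn2, which rose (1.17). Of the 6, 2 rose and 4 fell, where 8.3% of all genes rose and 8.82% fell. Of the 19 members that are Diamond-Blackfan anemia genes in humans, none was called in H3.3G34W over H3.3WT, where the median was -0.73, and 2 fell in H3.3G34W_K36R over H3.3WT, Rps28 and Rps29 (median -0.64), where 8.82% of all genes fell. Against H3.3K27R, 3 of the 19 fell in H3.3G34W_K27R (median -0.66), where 14.5% of all genes fell.

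Over the 16 libraries the members moved together. The correlation of a member's log2 value with the median of all members ran from 0.29 to 0.998, with a median of 0.869, and 31 members were over 0.9. These correlations describe 16 libraries that share a scale, and a member is itself part of the median. Among the 12593 other genes tested the median correlation was -0.01 and 7 were over 0.9. The medians of the large and the small subunit correlated with each other at 0.966. Rps13, Rps24, Rps3, Rps27a, which is made as a fusion with ubiquitin, and Rpl36a followed the median most closely, and Rps27, Rps21, Rps29 and Rps28 were among those that followed it least. Rps24 had values of 17170.5 and 27448 in H3.3G34W, 34544 and 34417 in H3.3G34R, 40110.5 and 42204 in H3.3K27R, 24327 and 24172 in H3.3G34W_K27R, 27123 and 27720.4 in H3.3G34W_K36R, 29772 and 36872 in H3.1G34W, 26095 and 45927 in H3.1WT and 37649 and 37926 in H3.3WT. They were lowest in replicate 1 of H3.3G34W and highest in replicate 2 of H3.1WT.

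Outside the members, the genes tested whose values correlated most with the member median were a pseudogene copy, Rpl34-ps1 (0.959), the elongation factor subunit Eef1b2 (0.937), Tpt1, a TOP mRNA that encodes translationally controlled tumor protein (0.911), Erich1 (0.904), Fau, whose product is cleaved to a ribosomal protein of the small subunit and a ubiquitin-like protein (0.902), and Rpl36al (0.882), all as Pearson correlations over 16 libraries. Tsta3, Tspo, Aimp1 and Mrpl23 came next, at 0.86 to 0.87. Eef1b2 stood at 11663 and 21417 in H3.3G34W, 23363 and 22995 in H3.3G34R, 27064 and 28034 in H3.3K27R, 13388 and 12845 in H3.3G34W_K27R, 18817 and 18500.3 in H3.3G34W_K36R, 21599 and 24755 in H3.1G34W, 18968 and 30969.7 in H3.1WT and 26815 and 26842 in H3.3WT. It fell in H3.3G34W_K27R against H3.3K27R (-1.07 on the log2 scale). Fau stood at 10263 and 13603 in H3.3G34W, 17443 and 16759.8 in H3.3G34R, 16885 and 16038 in H3.3K27R, 10993 and 11878 in H3.3G34W_K27R, 12506 and 11912 in H3.3G34W_K36R, 12350.2 and 13741 in H3.1G34W, 9914 and 18526 in H3.1WT and 16361 and 16383 in H3.3WT. Replicate 1 of H3.1WT and replicate 1 of H3.3G34W were lowest for Fau, and both H3.3G34R libraries were above H3.3WT.

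Gnb2l1 (Rack1), a scaffold on the small subunit whose mRNA also begins with the pyrimidine motif, stood at 21433 and 36946 in H3.3G34W, 37344 and 37415 in H3.3G34R, 56663 and 56797 in H3.3K27R, 37473 and 34868 in H3.3G34W_K27R, 45972 and 45807 in H3.3G34W_K36R, 54391 and 67602 in H3.1G34W, 48119.8 and 69046 in H3.1WT and 53563 and 53777 in H3.3WT. It was below H3.3WT in both libraries of H3.3G34W, H3.3G34R, H3.3G34W_K27R and H3.3G34W_K36R, and above both H3.3WT libraries in both libraries of H3.3K27R and H3.1G34W and in replicate 2 of H3.1WT. Rpl22l1, the paralog of Rpl22, fell in H3.3G34W_K27R against H3.3K27R (-1.02), at 1883 and 1952 in H3.3G34W_K27R, against 3803 and 3965 in H3.3K27R. The paralogs Rpl10l, Rpl39l and Rpl3l were at or near 0 in every library.

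The rest of the translation machinery was measured by lists. Of 23 other TOP mRNAs none was called in H3.3G34W over H3.3WT, with a median log2 fold change of -0.52, and 3 fell in H3.3G34W_K27R over H3.3WT (median -0.51, where 7.91% of all genes fell), Eif3h (-0.85), Eif4b (-0.82) and Eif3e (-0.72), all parts of translation initiation. Against H3.3K27R 6 of them fell in H3.3G34W_K27R (median -0.53, against 14.5% of all genes), among them Eef1b2 (-1.07), Tpt1 (-0.93) and Npm1, a nucleolar chaperone (-0.85). Against H3.3G34W 10 rose and 1 fell in H3.3G34W_K36R (median 0.57, against 14.4% and 16.2% of all genes), with Pabpc1, the poly(A)-binding protein, rising by 1.78. In H3.1WT over H3.3WT 6 rose and 1 fell (median 0.35), where 16.3% of all genes rose and 17% fell. The members had medians of -0.69, -0.56, -0.65, 0.22 and -0.16 in these comparisons.

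Eef1a1, the elongation factor that brings tRNA to the ribosome and itself a TOP mRNA, stood at 175040 and 251738 in H3.3G34W, 247811 and 250717 in H3.3G34R, 293824 and 301193 in H3.3K27R, 203676 and 191819 in H3.3G34W_K27R, 384686 and 384564 in H3.3G34W_K36R, 434321 and 521469 in H3.1G34W, 406299 and 491024 in H3.1WT and 303631 and 303071 in H3.3WT. The 6 libraries of H3.3G34W_K36R, H3.1G34W and H3.1WT were highest, unlike for the short members, and it rose in H3.3G34W_K36R against H3.3G34W (0.87). Of 8 elongation factors tested, 2 fell in H3.3G34W_K27R against H3.3K27R, where 14.5% of all genes fell. They were Eef1b2 and Eef2, which moves the ribosome along the mRNA (-0.74). None of the 8 was called in H3.3G34W against H3.3WT (median -0.55). The list of initiation factors held 49 genes picked by symbols beginning with Eif. It takes in Eif2c4, an Argonaute gene under its older name and not an initiation factor. Of the 49 none was called in H3.3G34W (median -0.21) and 3 fell in H3.3G34W_K27R (median -0.07, where 7.91% of all genes fell), both over H3.3WT. In H3.1WT over H3.3WT, where 16.3% of all genes rose, 17 of the list rose and 1 fell, Eif2c4 (-2.33), with Eif1a at 1.42 and Eif2s2 at 1.29.

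Of 60 ribosome assembly factors tested, 33 rose and 1 fell in H3.1WT over H3.3WT (median 0.80), where 16.3% of all genes rose and 17% fell. Of the 77 members 5 fell and none rose, and the difference between the lists was not tested. Among those that rose were Pno1 (1.86), Ncl, which encodes nucleolin (1.58), Rpf2 (1.44) and Nop2 (1.42), and the 1 that fell, named after its value was seen, was Nop10 (-0.88). Of 31 regulators of ribosomal protein mRNA 9 rose and 3 fell in H3.1WT over H3.3WT (median 0.30), where 16.3% of all genes rose and 17% fell. Myc, which drives transcription of many assembly factors, rose (1.67), and its antagonist Mxd4 fell (-2.10). The part of these regulators in the assembly factor values was not tested. In H3.3G34W over H3.3WT none of the 60 assembly factors was called (median -0.33), and in H3.3G34W_K27R over H3.3WT 1 rose, Sbds, which frees new large subunits from a maturation factor (0.75, with a median over the list of 0.03). Of all genes, 6.42% rose in H3.3G34W_K27R over H3.3WT. Of 13 RNA polymerase I genes none was called in H3.3G34W or H3.3G34W_K27R over H3.3WT (medians -0.27 and -0.05).

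The 76 mitochondrial ribosomal protein genes, which encode the separate ribosome of mitochondria, had medians of -0.19 in H3.3G34W and -0.04 in H3.3G34W_K27R over H3.3WT with none called in either, against -0.69 and -0.56 for the cytosolic members. In H3.3G34W_K36R 6 fell (median -0.22), the largest being Mrps12 (-1.31), and in H3.1WT 11 rose and 5 fell (median 0.22), both over H3.3WT. Of all genes, 8.82% fell in H3.3G34W_K36R, and 16.3% rose and 17% fell in H3.1WT. The difference between the lists was not tested. Of 31 regulators of ribosomal protein mRNA none was called in H3.3G34W over H3.3WT (median -0.19). In H3.3G34W_K27R over H3.3WT Mnt, a Max partner that opposes Myc, rose (0.89), and Rps6kb1, which encodes the S6 kinase (-0.67), the cell cycle factor E2f1 (-1.03) and Mxd3 (-3.85) fell. Of all genes, 6.42% rose and 7.91% fell there. Of the snoRNA host genes listed, 1 was tested, so no count is given.

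**Figure D5:**
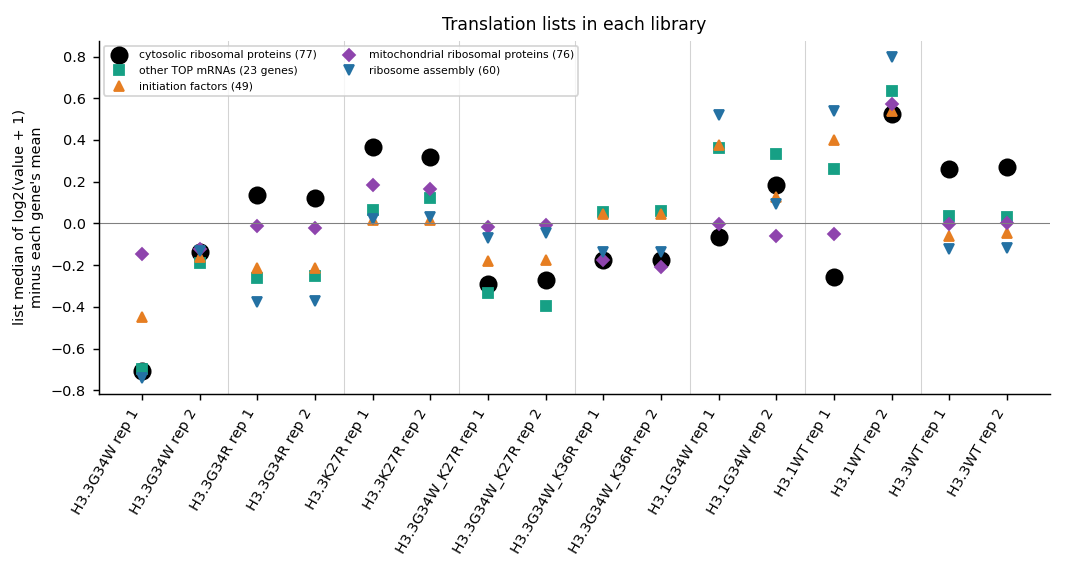
Median over each list of log2(value + 1) minus each gene's mean, by library, for the 77 cytosolic ribosomal protein genes (black circles) and 4 other translation lists. In replicate 1 of H3.3G34W the ribosomal proteins, the other TOP mRNAs and the assembly factors lie lowest, and in replicate 1 of H3.1WT the ribosomal proteins lie at -0.26 while the assembly factors lie above 0.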

How the data were processed

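RNA-seq libraries of 16 samples in 8 groups of 2 were analysed from 1 table of 20325 genes. Per the submitters' processing notes, RSEM 1.2.4 and the mm9 genome were used, and read length, strand and annotation are not given in the sources used here. The deposited signal values are expected counts that the authors scaled by 1 constant per library: the commonest low value of a library was taken as the value of 1 read, from which the depth of 26019532 to 49118720 reads was estimated. Only 41.7% to 47.6% of values above 0 were whole reads within 0.01, so no count test was run, although one had been planned for whole counts. A second deposited table gave 180 of the genes with the same values and held no member.

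Values were taken as log2(value + 1), genes with a mean under 10 were left out, and 12670 genes were fitted with limma 3.58.1 (eBayes with trend and robust, statmod 1.5.0, R 4.3.3) over all 8 groups. Fold changes on this scale understate those of low genes. The H3.3WT libraries were averaged, which left 15 samples and 7 residual degrees of freedom. P-values were adjusted by Benjamini-Hochberg over all genes at 0.05, and errors after ± are SE. Python 3.11.15 with numpy 2.4.6, pandas 2.3.3, scipy 1.17.1 and matplotlib 3.10.9 did the rest. The fit was tested on simulated data.

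Coding lengths came from GENCODE vM21 and promoters from RefSeq, both on GRCm38, matched by symbol and used with no coordinates of mm9. Members and lists were chosen with earlier results of these data known. Named members were 16 fixed ones, the 5 called members with the largest change each way per comparison, the 5 of smallest F test p, the 5 of highest and lowest mean and the 5 most and least correlated with the member median; outside the members, the 10 genes most correlated with it and up to 4 called genes per list and comparison were named. Alternatives were other pseudocounts, filters, scalings, variance models, samples in the fit and counting of close pairs, the replicate number as a block, and leaving out each library. Whole reads stood behind too few members for a count of those alone. Some genes that these rules pick are counted but not reported here by name or value.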

Additional observations from a re-analysis of the deposited data

How the results depend on the processing

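The direction of the members' median held under all alternatives but leaving out a library, except in H3.1G34W over H3.1WT (0.05 with equal total signal, 0.12 with quantile normalization), and the number of members called did not hold. The shares of all genes called under the alternatives are not given here. Counts of members called under them, here and above, therefore do not set the members apart from other genes. In H3.3G34W_K27R over H3.3WT the 1 call became 0 with a pseudocount of 0.5, with no filter, with a minimum mean of 50 and with equal total signal, 2 with a pseudocount of 5 and 4 with quantile normalization. With the H3.3WT libraries counted separately the calls were 7 in H3.3G34W, 23 in H3.3G34W_K27R and 21 in H3.3G34W_K36R over H3.3WT, 30 in H3.3G34W_K27R over H3.3K27R and 44 across the 8 groups. With close pairs counted as 1 sample they were 0 in each of these, in H3.1WT over H3.3WT and in H3.3G34W_K36R over H3.3G34W. With the compared groups fitted alone they were 50 in H3.3G34R, 30 in H3.3K27R, 74 in H3.3G34W_K27R, 69 in H3.3G34W_K36R and 0 in H3.1WT over H3.3WT, 2 in H3.3G34W_K36R over H3.3G34W and 74 in H3.3G34W_K27R over H3.3K27R. Averaging the close pairs leaves fewer samples, and the spread then comes only from H3.3G34W, H3.1G34W and H3.1WT, whose libraries differed widely. Fitting the compared groups alone takes the spread from those libraries only. In the comparisons with H3.3WT, whose libraries were averaged to 1 sample, the spread is that of the other group's pair alone. That pair was close in H3.3G34R, H3.3K27R, H3.3G34W_K27R and H3.3G34W_K36R.

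With the replicate number as a block the calls were 10 in H3.3G34W, 25 in H3.3G34W_K27R, 23 in H3.3G34W_K36R and 8 in H3.1WT over H3.3WT, 36 in H3.3G34W_K27R over H3.3K27R and 58 across the 8 groups. The deviations of same-numbered libraries correlated at -0.27 to 0.06 over the pairs of groups. These correlations were not tested, and they cannot settle whether the numbers pair the libraries.

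Where leaving out a library left 1 in its group, that one was assumed to vary like the other groups. The members called were then 0 to 22 in H3.3G34W, 0 to 0 in H3.3G34R, 0 to 0 in H3.3K27R, 0 to 17 in H3.3G34W_K27R, 1 to 20 in H3.3G34W_K36R and 4 to 25 in H3.1WT over H3.3WT, 0 to 4 in H3.3G34W_K27R and 1 to 24 in H3.3G34W_K36R over H3.3G34W, 0 to 50 in H3.3G34W_K27R over H3.3K27R, 0 to 4 in H3.1G34W over H3.1WT, 10 to 71 across the 8 groups, and 0 to 1 and 0 to 0 in the interactions with histone type and with K27R. The medians ran -0.95 to -0.40, -0.13 to -0.09, 0.05 to 0.08, -0.59 to -0.55, -0.45 to -0.43 and -0.53 to 0.23 for the comparisons with H3.3WT in the same order, -0.18 to 0.42 and -0.06 to 0.54 for those with H3.3G34W, -0.66 to -0.63 for that with H3.3K27R and -0.45 to 0.34 for that with H3.1WT, with -0.061 in H3.3G34W_K36R over H3.3G34W without replicate 1 of H3.3G34W. Signs turned without H3.3G34W replicate 1 (both comparisons with H3.3G34W), H3.1WT replicate 1 (H3.1WT over H3.3WT), and H3.1WT replicate 2 or H3.1G34W replicate 1 (H3.1G34W over H3.1WT). Without replicate 1 of H3.1WT, Rps29 in H3.1G34W over H3.1WT had a log2 fold change of -0.54 (limma adjusted p = 0.0435, range over 27 alternatives 0.0435 to 1), and without replicate 2 0.72, against 0.09 with all libraries, and the cause was not tested. Of 9720 values of 36 named members under the alternatives, 9173 kept their side of the threshold, 194 lost and 352 gained a call. Values called neither in the main fit nor in the alternative were counted as kept even where their direction turned.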
